A study of Mus musculus with 42 samples.

Results

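The 6 livers collected at Zeitgeber time (ZT) 12 fell into a pair of clock states, and the genes that followed this division are described here. The members were 6 of the 42 RNA sequencing libraries of the series, 3 in each state. The division was made on measured values. In libraries Y14_1, Y16_3, and Y39_1 the clock genes resembled those of ZT 0, and in libraries Y1_1, Y25_1, and Y27_3 they resembled those of ZT 8, with Arntl, Npas2, Nr1d1, and Dbp as markers. These sets are called ZT 0-like and ZT 8-like. Because the same libraries defined the groups, differences in expression between the groups are given as descriptions without a p-value.

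All libraries were labelled as liver of female C57BL/6 mice (C57BL/6NHsd in the study's methods), bought as weanlings at 3 weeks of age and then fed for 3 weeks either AIN93G, the standard diet, or a modified AIN93G rich in soybean oil (HFD), with free access. Light was on from ZT 0 to ZT 12, and mice were not fasted before termination. By the study's methods, 3 RNA extractions per diet and time point were sequenced, from mice killed at that time, so libraries of different times came from different mice. Some title numbers recur across times (Y14_1 and Y14_3, Y25_1 and Y25_3). Both states held both diets. The ZT 0-like group was made of 2 AIN93G livers (Y14_1, Y16_3) and 1 HFD liver (Y39_1), and the ZT 8-like group of 1 AIN93G liver (Y1_1) and 2 HFD livers (Y25_1, Y27_3). The 6 libraries each of ZT 0, ZT 4, and ZT 8, and 3 HFD libraries each of ZT 16 and ZT 20, served as references.

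The circadian clock of a hepatocyte is a transcriptional feedback loop. ARNTL (BMAL1) pairs with CLOCK or NPAS2 and activates genes through E-box motifs, among them those of the PER and CRY repressors and of the nuclear receptors NR1D1 and NR1D2. The nuclear receptors repress Arntl, Npas2, and Nfil3 through ROR elements, and DBP, TEF, and HLF act on D-box motifs that NFIL3 also binds. In liver the loop drives daily rhythms in the metabolism of bile acids, glucose, lipids, heme, and drugs, and feeding and glucocorticoids also act on many of the same genes.

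The states were compared with the labels first. Each library has a title with a number, and within each diet the libraries labelled as dark phase had lower numbers than those labelled as light phase, namely 1 to 11 against 13 to 24 on AIN93G and 25 to 36 against 37 to 48 on the HFD. The single exception was Y16_3 of ZT 12, labelled as dark phase. The 3 ZT 0-like libraries had numbers within the light-phase range of their diet, and 0 of the 3 ZT 8-like libraries did (two-sided Fisher's exact test, p = 0.1, the smallest that 3 against 3 allows, so this test cannot pass 0.05). By the phase label itself, 2 of 3 and 0 of 3 were light phase (exact p = 0.4). What the title numbers stand for was not stated, and nothing in the labels marks a batch.

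Total counts ranged from 15352551 to 16248273 in the ZT 0-like and from 17395110 to 17817300 in the ZT 8-like libraries, without overlap. The scaling factors ranged from 0.996 to 1.03 and from 0.9 to 0.959. The livers were hepatocyte tissue by their markers in all 6 libraries, with albumin (Alb) between 81006 and 103626 CPM (read counts scaled to the size of the library), Adipoq at most at 11 counts, and the 11 hepatocyte markers together at 127000 to 143000 CPM (ZT 0-like) and 143000 to 163000 CPM (ZT 8-like). The 5 lymphocyte markers, 1 of which passed the count filter, summed to 19.2 to 22.7 CPM and 15.1 to 16.6 CPM, also without overlap, while the summed markers of stellate, endothelial, Kupffer, bile duct, and erythroid cells overlapped. The part of depth and of these cells in the differences below was not tested, and in bulk tissue fewer cells of a type and less RNA per cell cannot be told apart. Of the other libraries, 1 AIN93G library of ZT 8 held 671 CPM of the 2 skeletal muscle markers, against at most 17.8 CPM in the ZT 12 libraries, and 10 libraries of ZT 16, ZT 20, and ZT 24 held at most 64 CPM of Alb, which goes against their label, and were not used.

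The activators of the loop were higher in the ZT 0-like livers, and Arntl and Npas2 were close to absent in the ZT 8-like livers. Arntl (ENSMUSG00000055116, mm10 chromosome 7, 113207465 to 113314126) was at 42.1, 46.3, and 38.6 CPM in Y14_1, Y16_3, and Y39_1, and at 1.14, 1.77, and 0.936 CPM in Y1_1, Y25_1, and Y27_3. The ZT 0 livers had 39.1 to 45.9 CPM and the ZT 8 livers 1.22 to 2.5 CPM, so that each state lay within about 1 CPM of the range of the time point that it resembled. Arntl was higher at ZT 0 than at ZT 8 by 4.5 (SE 0.15) on the log2 scale. Those times were the templates of the division, so for clock genes this comparison is a description and no independent support. Npas2 (ENSMUSG00000026077, chromosome 1, 39193731 to 39363236), the partner that can replace CLOCK, was at 34.8, 20.9, and 14.8 CPM against 0.253, 0.184, and 0.0585 CPM. At this depth the last of these is 1 read, and the log2 difference of 6.35 depends on the prior count of 2. Clock itself differed less, at 80.1, 92.1, and 60.2 CPM against 32.7, 28.3, and 29.8 CPM (log2 difference 1.33). Nfil3, the repressor at D-box motifs, was at 64.3, 55.1, and 73.0 CPM against 15.6, 18.2, and 11.5 CPM (2.09).

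The repressors of the loop were mostly low in the ZT 0-like livers. Per3 was at 3.83, 4.07, and 1.77 CPM against 111, 69.2, and 115 CPM, a log2 difference of -4.93. Per1 was at 9.20, 17.7, and 18.4 CPM against 90.0, 78.4, and 78.9 CPM (-2.5), and Per2 differed by -2.23. Ciart, a repressor of the ARNTL and CLOCK dimer, was under 1 CPM in each ZT 0-like liver and at 61.3, 23.4, and 32.7 CPM in the ZT 8-like livers (-6.03). Cry2 differed by -1.33, while Cry1 lay the other way, at 49.1, 42.5, and 35.1 CPM against 17.5, 19.2, and 21.3 CPM (1.11). Between ZT 0 and ZT 8 the same opposite directions of Cry1 and the Per genes were seen, and Per1, Per2, Per3, Ciart, Cry1, and Cry2 were all called there. Called here means an adjusted p under 0.05 by edgeR.

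Among the nuclear receptors, Nr1d1 (ENSMUSG00000020889, chromosome 11, 98767932 to 98775333) was at 1.67, 2.74, and 5.62 CPM in the ZT 0-like and at 15.3, 12.1, and 15.0 CPM in the ZT 8-like livers. The groups did not overlap, yet the ZT 8-like livers lay below each of the 6 ZT 8 livers, which ranged from 52.3 to 116 CPM, with a difference of means of -2.40 on the log2 scale. Its relative Nr1d2 was at 144, 92.5, and 129 CPM in the ZT 8-like livers, against 129 to 206 CPM at ZT 8, so that Y25_1 lay below each ZT 8 liver. Rora and Bhlhe40 overlapped between the states.

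Among the D-box factors, Dbp had the widest difference of the clock list. Dbp (ENSMUSG00000059824, chromosome 7, 45705088 to 45710203) was at 0.359, 0.127, and 0.131 CPM in the ZT 0-like livers and at 102, 62.9, and 79.3 CPM in the ZT 8-like livers, a log2 difference of -8.01 that rests on the prior count. Between ZT 0 and ZT 8 it differed by -7.87 (SE 0.23). Tef was at 21.6, 27.4, and 26.2 CPM against 348, 259, and 318 CPM (-3.61), and Hlf differed by -1.04. In all, 18 of the 19 genes of the clock list passed the count filter, 5 higher and 11 lower in the ZT 0-like livers without overlap. Over all 12009 genes tested, 14.1% were higher and 12.4% lower without overlap, and the clock genes were what the groups were chosen on. Bhlhe41 did not pass the filter, with 1 to 2 counts in the ZT 0-like and 7 to 32 counts in the ZT 8-like livers.

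**Figure D1:**
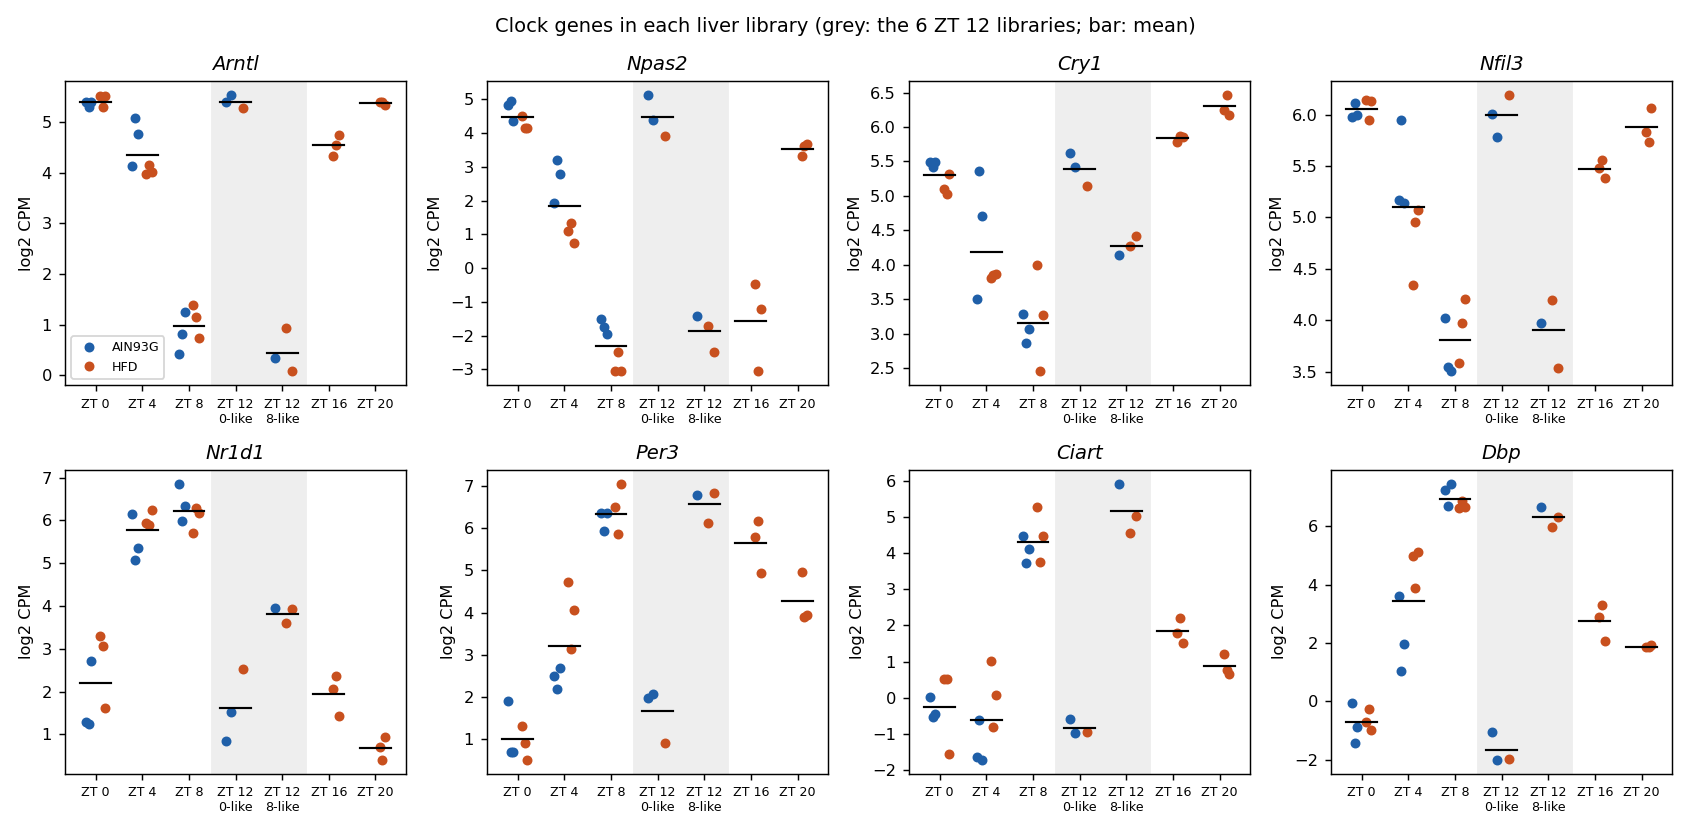
Log2 CPM (vertical axis) of 8 clock genes in each liver library by time point, with the 6 libraries of ZT 12 on a grey ground as the ZT 0-like and ZT 8-like groups. Points are libraries coloured by diet, and bars are group means; ZT 16 and ZT 20 are HFD livers only. The ZT 12 groups do not overlap in any panel, and Nr1d1 of the ZT 8-like group lies below the ZT 8 livers.

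To show what the clock genes have in common in sequence, the windows from 250 bases before to 50 bases after the transcript starts of RefSeq (GRCm38.p6, the assembly of mm10) were searched on both strands for an E-box (CACGTG), a D-box (TTATGTAA or TTACGTAA), and an ROR element (TAGGTCA). Of the 19 clock genes, 16 had a window. Per2 and Bhlhe40 were among those without one. An E-box was found in 5 of the 16 (Per1, Cry1, Ciart, Tef, Bhlhe41), a D-box in 1 (Per3), and an ROR element in 2 (Arntl, Nfil3). Over the 27018 genes with a window, the shares were 8.09%, 1.23%, and 2.97%. The windows of 5 genes are printed 5′ to 3′ on the strand of the gene, with the matched motif in capitals, as 2 that were higher (Arntl, Nfil3) and 3 that were lower (Ciart, Tef, Per3) in the ZT 0-like livers.
Arntl, chr7:113207261-113207560, strand +: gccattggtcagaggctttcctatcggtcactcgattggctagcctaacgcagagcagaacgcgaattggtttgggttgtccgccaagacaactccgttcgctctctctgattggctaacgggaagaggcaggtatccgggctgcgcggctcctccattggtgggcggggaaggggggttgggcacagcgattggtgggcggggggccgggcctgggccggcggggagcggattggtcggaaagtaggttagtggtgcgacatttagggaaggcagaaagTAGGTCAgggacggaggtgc
Nfil3, chr13:52980990-52981289, strand -: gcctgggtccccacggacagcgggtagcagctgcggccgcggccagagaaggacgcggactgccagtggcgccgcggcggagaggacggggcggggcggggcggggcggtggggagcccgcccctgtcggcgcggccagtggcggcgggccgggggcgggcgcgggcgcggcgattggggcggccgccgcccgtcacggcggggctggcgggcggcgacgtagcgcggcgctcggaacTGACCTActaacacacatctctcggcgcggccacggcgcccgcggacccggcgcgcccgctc
Ciart, chr3:95882179-95882478, strand -: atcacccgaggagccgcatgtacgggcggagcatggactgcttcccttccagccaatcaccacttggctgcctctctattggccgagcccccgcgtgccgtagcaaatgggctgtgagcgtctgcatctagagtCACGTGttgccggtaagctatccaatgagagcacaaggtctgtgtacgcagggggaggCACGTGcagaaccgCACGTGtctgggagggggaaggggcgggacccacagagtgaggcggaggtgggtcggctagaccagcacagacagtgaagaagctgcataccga
Tef, chr15:81802423-81802722, strand +: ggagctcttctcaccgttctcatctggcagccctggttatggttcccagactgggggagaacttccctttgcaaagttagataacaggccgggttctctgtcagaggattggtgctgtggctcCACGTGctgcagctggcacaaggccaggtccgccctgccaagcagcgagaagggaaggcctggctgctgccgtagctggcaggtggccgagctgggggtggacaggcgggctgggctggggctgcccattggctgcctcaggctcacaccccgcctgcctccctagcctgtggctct
Per3, chr4:151044616-151044915, strand -: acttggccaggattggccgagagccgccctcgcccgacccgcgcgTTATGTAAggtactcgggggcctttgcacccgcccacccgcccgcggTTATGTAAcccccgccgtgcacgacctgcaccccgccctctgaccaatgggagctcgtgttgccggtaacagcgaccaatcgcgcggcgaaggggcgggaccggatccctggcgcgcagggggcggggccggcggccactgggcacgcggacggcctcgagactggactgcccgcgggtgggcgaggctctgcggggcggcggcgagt
The ROR element of Arntl starts 30 bases after the transcript start, and that of Nfil3 reads on the other strand, 12 bases before it. Ciart has E-boxes 116, 58, and 44 bases before its start, Tef has 1 at 127 bases, and Per3 has D-boxes at 205 and 158 bases. Both genes with an ROR element were higher in the ZT 0-like livers, and a match is a description of the letters only. The same motifs were counted over all genes, clock genes included, that differed between the states by at least 2-fold without overlap. An ROR element lay in 10 of 206 windows of the higher genes (4.85%) and 6 of 228 of the lower genes (2.63%), against 2.54% of the 9250 tested genes with a window. An E-box lay in 24 (11.7%) and 36 (15.8%), against 11.8%, and a D-box in 2 (0.971%) and 8 (3.51%), against 0.908%.

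How far each liver lay between ZT 0 and ZT 8 was then measured, with 0 for the mean of the 6 ZT 0 livers and 1 for the mean of the 6 ZT 8 livers. On the 18 clock genes, the ZT 0-like livers lay at -0.050 (Y14_1), -0.034 (Y39_1), and -0.029 (Y16_3), and the ZT 8-like livers at 0.895 to 0.991. The 1393 genes outside the clock list that were called between ZT 0 and ZT 8 put the ZT 0-like livers at 0.042 to 0.187 and the ZT 8-like livers at 0.867 to 1.021. The positions on the clock genes restate how the groups were chosen, and those on the other genes are from the same libraries. On these other genes the livers of HFD ZT 20 (0.120 to 0.243) and AIN93G ZT 4 (0.175 to 0.474) reached into the range of the ZT 0-like livers. The livers of ZT 4, ZT 16, and ZT 20 lay between them on the clock genes, at 0.206 to 0.394 (AIN93G, ZT 4), 0.467 to 0.613 (HFD, ZT 4), 0.490 to 0.669 (HFD, ZT 16), and 0.213 to 0.266 (HFD, ZT 20). Beside these, 2 livers of ZT 24 were singled out after their values were seen because they held over 10000 CPM of Alb. On the clock genes they lay at 1.09 (Y8_2, AIN93G) and 0.915 (Y33_2, HFD), on the side of the ZT 8-like livers. On the other called genes they lay at 1.056 and 0.772, the latter below the ZT 8-like range. By the light cycle, ZT 24 is the same time of day as ZT 0, whose mean is at 0. The cause of their distance from ZT 0 was not tested.

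**Figure D2:**
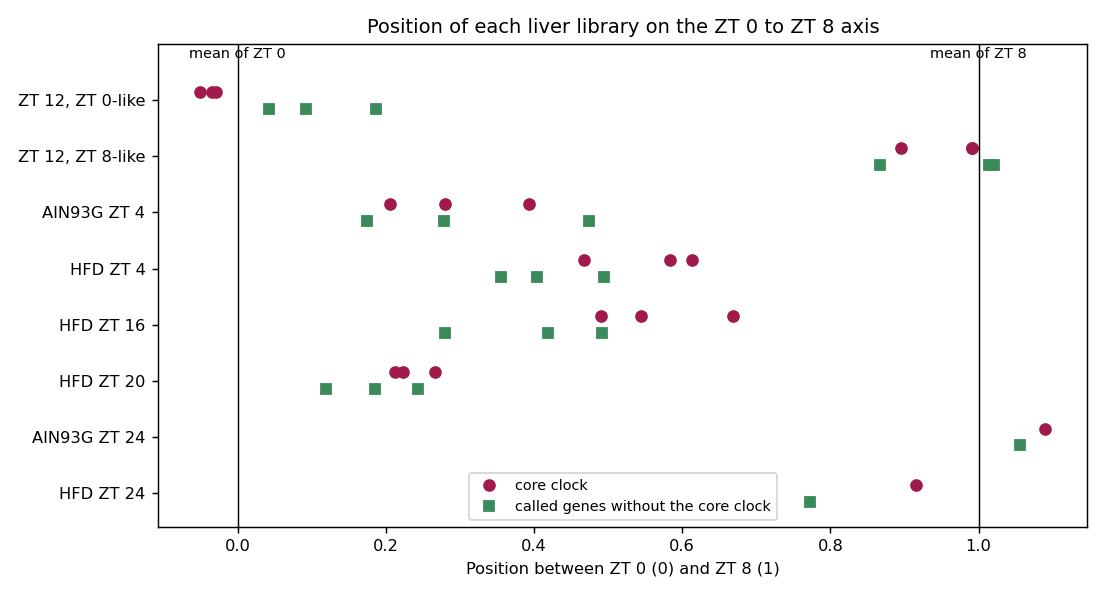
Position of each liver library (points) between the mean of ZT 0 (0) and the mean of ZT 8 (1) on the horizontal axis, for the clock list (circles) and for the other 1393 called genes (squares), by group. The ZT 0-like livers lie between -0.050 and 0.187 and the ZT 8-like livers between 0.867 and 1.021.

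Correlation with the HFD references of ZT 0, 4, 8, 16, and 20 gave each liver a closest time point. Across the 18 clock genes, Pearson's r with ZT 0 was 0.880 (Y14_1), 0.931 (Y16_3), and 0.975 (Y39_1), and r with ZT 8 was 0.906 (Y1_1), 0.879 (Y25_1), and 0.906 (Y27_3). These values are across genes, which are not independent replicates, and on the clock genes the closest time point follows from how the groups were chosen. Y14_1 was almost as close to ZT 20 (0.850) as to ZT 0. Across the 1393 other called genes, Y16_3 was closest to ZT 20 (0.413, against 0.353 for ZT 0), whereas the other 5 livers matched the time point given by the clock genes.

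Over all genes, clock list included, 300 genes (2.50% of those tested) were at least 2-fold higher and 317 (2.64%) at least 2-fold lower in the ZT 0-like livers without overlap. Since both states held both diets, the lack of overlap fixes that all 617 had the same direction in each diet, and 466 of them reached 2-fold within each diet. To ask which of them also differ between the times that the states resemble, ZT 0 was compared with ZT 8 in the 12 livers of those times, which share no library with ZT 12. By edgeR, 699 genes (5.82%) were higher and 711 (5.92%) lower at ZT 0. Of these 1410 genes, 1285 (91.1%) lay on the same side between the ZT 12 states, and 54.9% did so without overlap, against 66.4% and 21.7% of all genes tested. Without the clock list the share was 91.0%, and with the calls made without the ZT 8 liver that held muscle genes it was also 91.0% (1070 of 1176).

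Of the 617 genes, 322 were called between ZT 0 and ZT 8, and 319 of those had the same direction. The other 295 were not called, and 245 of them (83.1%) had the same direction, against 63.1% of all genes not called. Thus about as many genes of the division did not pass the test between ZT 0 and ZT 8 as did. The former came from 10599 genes not called and the latter from 1410 called, so the share was larger among called genes. When only the library totals were used for scaling, the median gene moved from 0.008 to 0.125 on the log2 scale, and 396 genes were higher and 253 lower past 2-fold. The same scaling gave 919 higher and 496 lower genes at ZT 0.

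**Figure D3:**
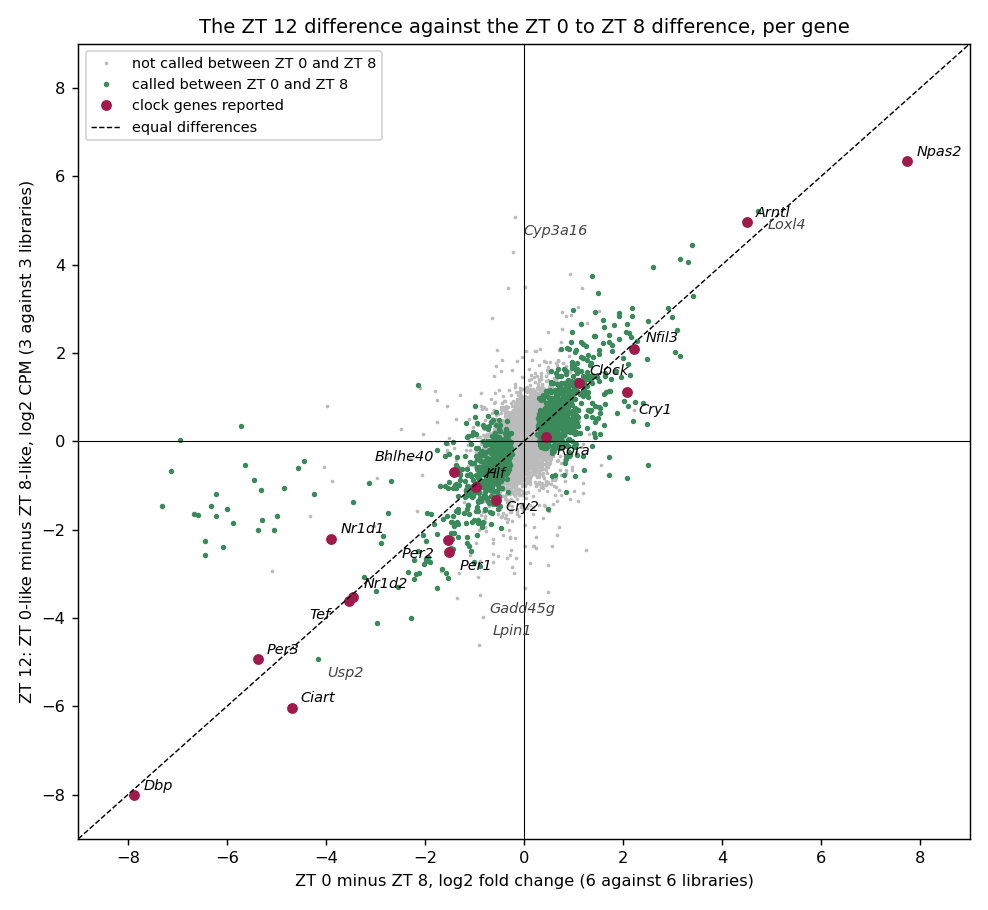
Log2 difference between the ZT 0-like and ZT 8-like livers (vertical axis, 3 against 3) against that between ZT 0 and ZT 8 (horizontal axis, 6 against 6), one point per gene. Green points are the 1410 genes called between ZT 0 and ZT 8, red points the clock genes reported here, and the dashed line marks equal differences. Lpin1, Gadd45g, and Cyp3a16 lie farther from zero on the vertical than on the horizontal axis, and the green points left of -4 with small vertical values are mostly muscle genes of 1 ZT 8 liver.

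Outside the clock list, the genes higher in the ZT 0-like livers were led by Loxl4 (ENSMUSG00000025185, chromosome 19, 42593982 to 42612813), which encodes a lysyl oxidase that cross-links collagen. It was at 48.1, 39.8, and 45.2 CPM in Y14_1, Y16_3, and Y39_1 and at 1.2, 1.53, and 0.644 CPM in Y1_1, Y25_1, and Y27_3. Tubb2a (ENSMUSG00000058672, chromosome 13, 34074274 to 34078007), a beta-tubulin, was at 310, 238, and 242 CPM against 14.4, 12.9, and 18.1 CPM. Both were also higher at ZT 0 than at ZT 8, by 4.73 (adjusted p = 2.67e-10) and 3.16 (adjusted p = 2.88e-08) on the log2 scale. Slc34a2, a phosphate transporter, Dhrs9, a retinol dehydrogenase, and Dtx4, a ubiquitin ligase, followed the same pattern with differences of 4.07, 3.96, and 3.36 between the states. Each of these passed the test between ZT 0 and ZT 8.

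Other leading higher genes, of the Cyp3a and Sult2a families, did not pass between ZT 0 and ZT 8. Cyp3a16 (ENSMUSG00000038656, chromosome 5, 145436309 to 145469723), a cytochrome P450, was at 102, 88.1, and 59.8 CPM against 17.2, 2.14, and 0.234 CPM. Its log2 difference between ZT 0 and ZT 8 was -0.19 (SE 0.53, adjusted p = 0.872), and single livers of ZT 4 ranged from 0.174 to 219 CPM. Cyp3a41a was at 165, 197, and 83.6 CPM against 50.8, 1.96, and 17.8 CPM. The sulfotransferase Sult2a2 was at 19.7, 9.17, and 9.48 CPM against 1.65, 0.612, and 0.0585 CPM, and Sult2a1 and Sult2a6 differed by 3.79 and 3.47. These Cyp3a and Sult2a genes have near-identical neighbours in the genome, so the share of reads counted for each is uncertain.

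Outside the clock list, those lower in the ZT 0-like livers were led by Usp2 (ENSMUSG00000032010, chromosome 9, 44067021 to 44095627), a ubiquitin-specific protease and known clock target. It was at 2.63, 2.67, and 2.81 CPM against 127, 64.6, and 75.9 CPM, and it was lower at ZT 0 than at ZT 8 by 4.16 (SE 0.29, adjusted p = 6.36e-07). The ZT 8-like livers lay above each of the 6 ZT 8 livers (19.8 to 63.2 CPM). Wee1, a kinase that holds cells before mitosis, was at 2.81, 2.29, and 1.31 CPM against 24.9, 15.4, and 24.1 CPM, and passed between ZT 0 and ZT 8 (adjusted p = 6.54e-05). Mt1, a metal-binding metallothionein, was at 15.5, 19.7, and 20.7 CPM against 428, 139, and 121 CPM (adjusted p = 0.00240 between the reference times).

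Lpin1 and Gadd45g separated the states without a call between ZT 0 and ZT 8. Lpin1 (ENSMUSG00000020593, chromosome 12, 16535669 to 16610966), a phosphatidate phosphatase of triacylglycerol synthesis and coactivator of fat oxidation genes, was at 36.5, 158, and 86.8 CPM in the ZT 0-like livers and at 1281, 1318, and 1160 CPM in the ZT 8-like livers. The ZT 8 livers ranged from 166 to 649 CPM and the ZT 0 livers from 46.2 to 264 CPM, so the ZT 8-like livers exceeded every reference of ZT 0 and ZT 8 (log2 difference of the references -0.82, adjusted p = 0.255). In the ZT 24 livers Y8_2 and Y33_2 it was at 607 and 1090 CPM. Gadd45g (ENSMUSG00000021453, chromosome 13, 51846678 to 51848468), a stress-inducible growth arrest gene, was at 12.8, 8.08, and 14.3 CPM against 120, 135, and 128 CPM, and ranged from 11.9 to 147 CPM at ZT 8. Tmc7, a channel-like membrane protein, was at 2.33, 2.29, and 1.37 CPM against 21.4, 14.2, and 14 CPM, where the highest ZT 8 liver had 5.37 CPM. Ppp1r3g, a glycogen-targeting subunit of protein phosphatase 1, and Eif4ebp3, a translation repressor, differed by -3.07 and -2.84. Egfros, an RNA on the strand opposite Egfr, differed by -3.40. The strand setting of the counting was not given, so its reads and those of Egfr cannot be told apart. Of the 24 genes with the widest differences outside the clock list, 8 were predicted genes without a settled name.

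**Figure D4:**
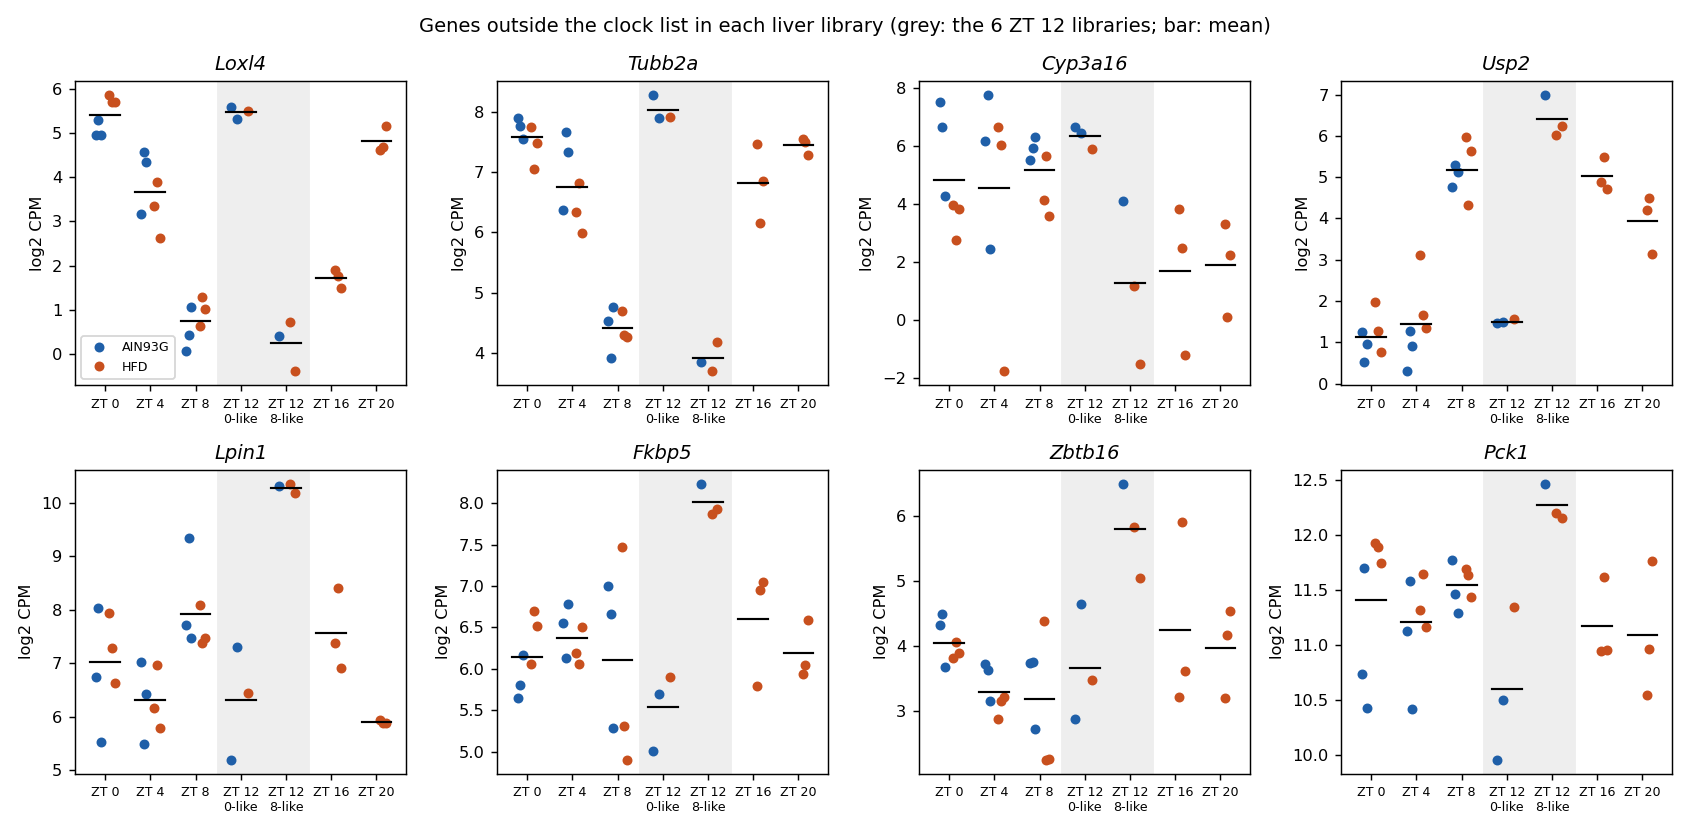
Log2 CPM (vertical axis) of 8 genes outside the clock list in each liver library by time point, drawn as for the clock genes, with points coloured by diet, bars for group means, and the 6 libraries of ZT 12 on a grey ground. Loxl4, Tubb2a, and Usp2 separate ZT 0 from ZT 8 as well, whereas Lpin1, Fkbp5, Zbtb16, and Pck1 of the ZT 8-like livers lie above all ZT 8 livers.

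Known clock-controlled liver genes mostly followed the states. Of 16 genes, 2 were higher and 12 lower in the ZT 0-like livers without overlap, against 14.1% and 12.4% of all genes. Their median log2 difference was -2.34, against 0.01 over all genes tested. Alas1, the rate-limiting enzyme of heme synthesis, was at 249, 148, and 299 CPM against 1759, 1947, and 1660 CPM. Por, which passes electrons to cytochrome P450 enzymes, was at 93.2, 108, and 168 CPM against 1041, 873, and 932 CPM. The ZT 8-like livers lay above all ZT 8 livers for Por, Usp2, Nampt, Noct, and Coq10b, that is for 5 of the 16 genes, and below them for Avpr1a and Insig2. Over all genes tested, 2.81% lay above and 3.74% below all ZT 8 livers. Upp2, a uridine phosphorylase, differed by -3.07 and Nampt, the rate-limiting enzyme of NAD salvage, by -2.11. The 2 higher genes were Avpr1a, a vasopressin receptor, at 98.4, 69.4, and 104 CPM against 26.3, 20.9, and 21.6 CPM, and Insig2, a brake on sterol synthesis, at 361, 397, and 531 CPM against 109, 105, and 106 CPM. Between ZT 0 and ZT 8, 3 of the 16 were called higher and 10 lower, against 5.82% and 5.92% of all genes.

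The glucocorticoid-responsive and metallothionein genes were lower in the ZT 0-like livers in most cases. Of 11 tested genes, 9 were lower and 1 higher without overlap, against 12.4% and 14.1% of all genes, with a median of -1.68. The 9 include the clock gene Per1. Between ZT 0 and ZT 8, 2 of the 11 were called lower and 1 higher, against 5.92% and 5.82% of all genes, and the median was -0.26. Fkbp5 (ENSMUSG00000024222, chromosome 17, 28399094 to 28517527), a cochaperone of the glucocorticoid receptor, was at 32.2, 51.7, and 59.8 CPM against 302, 234, and 243 CPM. Zbtb16 (ENSMUSG00000066687, chromosome 9, 48654297 to 48836222), a zinc finger repressor, was at 7.23, 25, and 11 CPM against 90.7, 57.2, and 32.9 CPM. In the ZT 8-like livers, Fkbp5, Zbtb16, Tat, Pck1, and Per1 lay above each ZT 8 liver. For Fkbp5 and Zbtb16, the differences from ZT 8 were 1.91 and 2.61 on the log2 scale. The exception was Cdkn1a, a cell cycle inhibitor, at 9.44, 24.2, and 25 CPM against 5.76, 5.20, and 3.16 CPM, which was also higher at ZT 0 than at ZT 8 (adjusted p = 1.90e-05). Per1, Tat, Pck1, Tsc22d3, Dusp1, and Cdkn1a stand on other lists as well.

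Genes of gluconeogenesis and insulin sensing lay partly on this side, with 6 of 13 lower and 1 higher without overlap (median -0.42), against 12.4% and 14.1% of all genes. Pck1 (ENSMUSG00000027513, chromosome 2, 173153048 to 173159273), the rate-limiting enzyme of gluconeogenesis, was at 990, 1445, and 2606 CPM against 5682, 4716, and 4581 CPM, and the ZT 8 livers ranged from 2503 to 3494 CPM. Tat, which degrades tyrosine, was at 1732, 1216, and 1872 CPM against 4012, 3266, and 3214 CPM, above the highest ZT 8 value of 2447 CPM. Foxo1, the insulin-controlled transcription factor, was at 30.7, 39.1, and 29.4 CPM against 87.3, 62.1, and 75.1 CPM. None of these 3 passed between ZT 0 and ZT 8 (adjusted p of 0.819, 0.851, and 0.693). Irs1, an adaptor of the insulin receptor, was the gene that lay the other way, at 28.4, 21.9, and 13.6 CPM against 11.9, 6.67, and 12.2 CPM. Among genes of glycolysis, fructose, and glycogen, 5 of 17 were lower and 1 higher by the same count (median 0.10), with Pfkfb3, which raises the activator of glycolysis, at 17.3, 11.1, and 7.52 CPM against 61.2, 55.0, and 51.2 CPM, and Gys2, liver glycogen synthase, at 98.1, 105, and 98.4 CPM against 326, 317, and 438 CPM.

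Of 15 tested genes of cytochrome P450 enzymes and xenobiotic receptors, 8 were lower and 2 higher in the ZT 0-like livers without overlap (median -0.41), against 12.4% and 14.1% of all genes. Cyp2a5, which oxidises nicotine and coumarin, was at 266, 176, and 168 CPM against 1467, 673, and 690 CPM. Cyp2e1, which oxidises ethanol, was at 2925, 2657, and 5491 CPM against 11366, 7583, and 8091 CPM. The receptors Nr1i2 (PXR) and Nr1i3 (CAR) were lower too, with log2 differences of -0.95 and -1.07, without a call between ZT 0 and ZT 8. The higher pair was Cyp2b9 and Cyp2c29, by 0.78 and 0.83. Of the 13 genes of bile acids, 3 were higher and 3 lower, which is closer to those shares. Cyp7a1, the rate-limiting enzyme of bile acid synthesis, was at 171, 31.5, and 59.4 CPM against 217, 290, and 411 CPM, whereas Cyp8b1, which makes cholic acid, was higher in the ZT 0-like livers by 1.28. Abcb11, the bile salt export pump, was at 1079, 1220, and 1043 CPM against 559, 316, and 417 CPM, and the ZT 8-like livers lay below each ZT 8 liver.

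The counts of the next groups are to be set against 14.1% higher and 12.4% lower among all genes tested, and some lie near those shares. Of 22 genes of endoplasmic reticulum chaperones and stress, 7 were higher and 1 lower without overlap (median 0.30), led by Sdf2l1 at 53.0, 39.5, and 37.4 CPM against 15.3, 29.2, and 9.24 CPM. The lower gene was Herpud1, a factor of protein degradation at that membrane, at 191, 279, and 344 CPM against 786, 794, and 582 CPM. Between ZT 0 and ZT 8, 13 of the 22 were called higher and 1 lower, against 5.82% and 5.92% of all genes. NRF2 targets had 5 of 10 higher and 0 lower (median 0.37), with Gclc, which limits glutathione synthesis, at 349, 447, and 331 CPM against 268, 152, and 154 CPM. Of 24 sterol genes 6 were higher and 2 lower, with Hmgcs1, an early enzyme of the pathway, at 259, 319, and 485 CPM against 83.0, 143, and 194 CPM. Acute phase genes had 7 of 15 higher and 3 lower with a median of -0.01, and the fibrinogen genes Fga, Fgb, and Fgg were higher by 0.66, 0.45, and 0.55. Interferon-stimulated genes had 3 of 14 higher and 0 lower.

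Genes of amino acid breakdown and the urea cycle lay on both sides, 5 of 20 higher and 8 lower. Hal, which degrades histidine, was higher in the ZT 0-like livers at 610, 528, and 428 CPM against 344, 217, and 206 CPM, while Sds, which degrades serine, was lower at 114, 84.1, and 77.4 CPM against 389, 260, and 197 CPM. Of 24 genes of fat oxidation, 1 was higher and 4 lower, against 14.1% and 12.4% of all genes, with medians of -0.84 between the AIN93G livers and 0.14 between the HFD livers. The higher gene was Pdk4, which blocks glucose oxidation, at 23.7, 27.3, and 31.3 CPM against 3.54, 5.14, and 2.16 CPM, and Cpt1a, the gate of fatty acid entry into mitochondria, was lower at 163, 199, and 331 CPM against 566, 461, and 767 CPM. Immediate early genes had 6 of 10 lower and 0 higher (median -0.71), with Myc, a growth factor-induced regulator, at 1.79, 1.53, and 2.03 CPM against 3.35, 10.6, and 16.4 CPM. Of the growth hormone axis, 2 of 8 were lower and 1 higher, against 12.4% and 14.1% of all genes. Pericentral markers had 2 of 8 higher and 3 lower and periportal markers 3 of 9 higher and 3 lower, so neither zone lay on 1 side.

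In other groups most genes overlapped between the states, as did 8822 of all 12009 genes tested. Without overlap, 14.1% of all genes were higher and 12.4% lower, and several counts below lie near those shares. Of 38 cytosolic ribosomal protein genes and 13 mitochondrially encoded subunits of oxidative phosphorylation, 0 were without overlap in either direction, with medians of -0.10 and 0.03. Nuclear subunits had 3 of 23 lower, ribosome biogenesis 3 of 19 lower, heat shock genes 2 of 12 lower, and cell cycle genes 1 of 15 higher and 2 lower. Of the heat shock genes, 5 of 12 were called higher at ZT 0 than at ZT 8, against 5.82% of all genes, and for 5 the ZT 8-like livers lay above all ZT 8 livers, against 2.81% of all genes. The 3 cold-inducible RNA-binding genes overlapped. Fatty acid synthesis genes overlapped in 15 of 18, with a median of 1.69 between the AIN93G livers and -0.23 between the HFD livers. The genes without overlap were Mlxipl and Elovl5, higher by 0.36 and 1.59, and Thrsp, a lipogenic nuclear protein, lower by 1.76 on the log2 scale. No test was run on the lists.

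**Figure D5:**
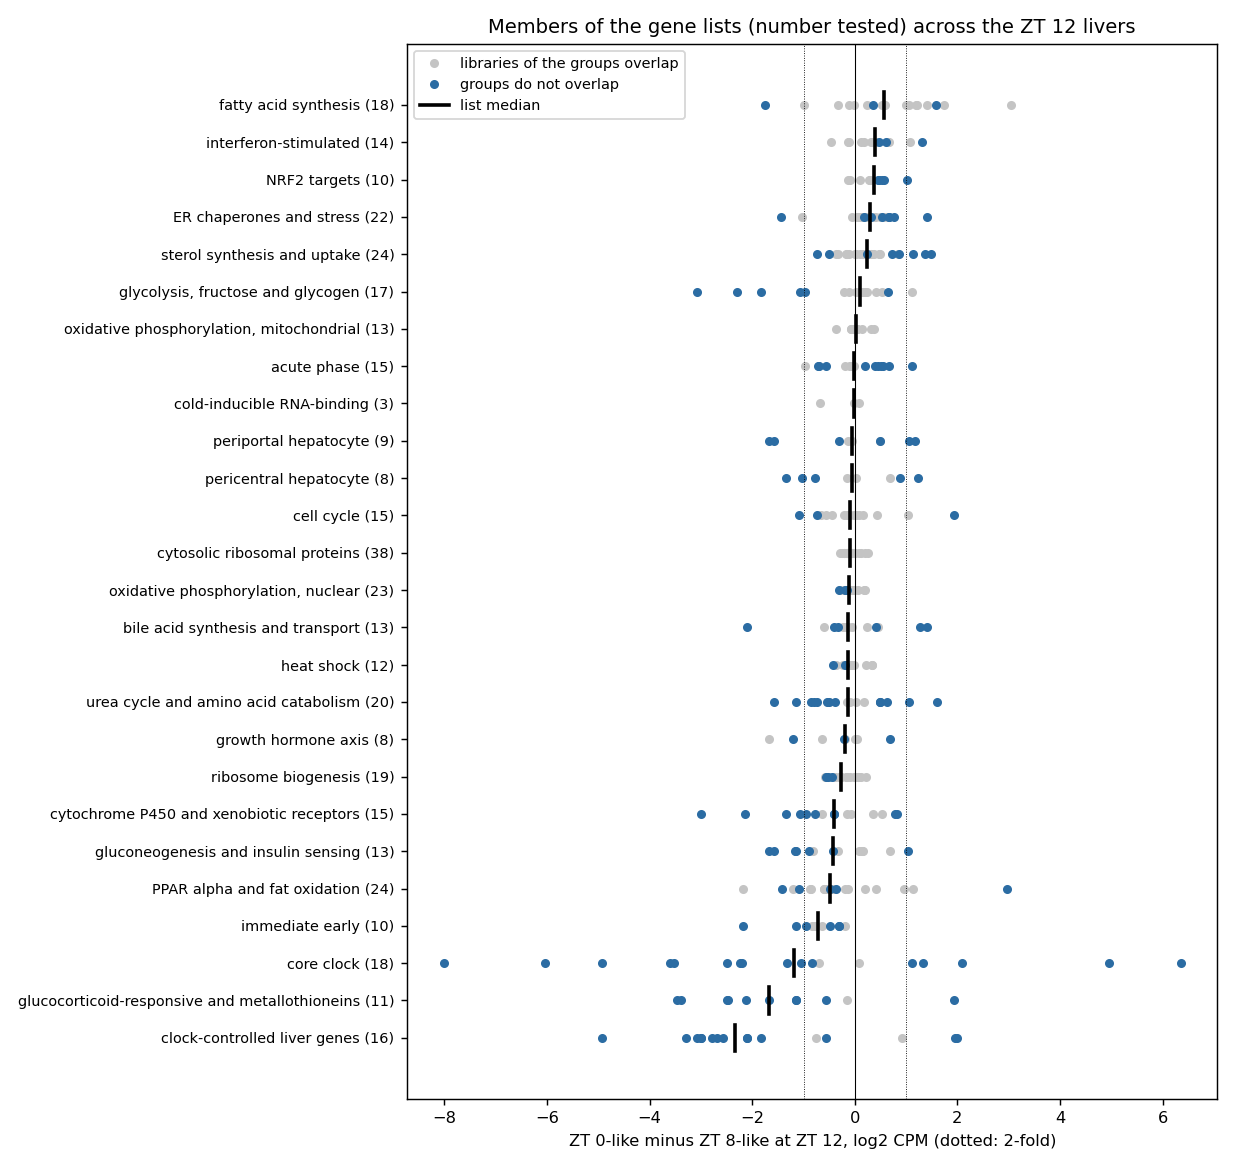
Log2 difference between the ZT 0-like and ZT 8-like livers (horizontal axis) for the members of 26 gene lists (vertical axis, number tested in brackets), with blue points where the groups do not overlap, grey points where they do, black bars for list medians, and dotted lines at 2-fold. The clock-controlled and glucocorticoid-responsive lists lie lowest, with medians of -2.34 and -1.68.

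The states were not equally well matched by their reference times. The ZT 0-like livers lay outside the range of the 6 ZT 0 livers and at least 2-fold from their mean for 17 genes, 2 higher and 15 lower (0.142%). The ZT 8-like livers lay outside the range of the 6 ZT 8 livers in the same way for 128 genes, 74 higher and 54 lower (1.07%). Of the 295 genes that separated the states without a call between ZT 0 and ZT 8, 54 were among these 128 and 4 among the 17. For the 322 with such a call, these numbers were 31 and 1. In the clock list, Per1, Per2, and Cry1 of the ZT 8-like livers lay above and Nr1d1 below all ZT 8 livers, and the HFD livers of ZT 16 had 118 to 124 CPM of Per2, 55.1 to 58.2 CPM of Cry1, and 2.59 to 5.02 CPM of Nr1d1. Per1 was at 33.7 to 54.7 CPM in those livers, below the ZT 8-like livers and close to the ZT 8 range of 41.1 to 56.8 CPM. Per2 was at 81.7, 104, and 101 CPM in the ZT 8-like livers, against 24.9 to 61.8 CPM at ZT 8.

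The diets were compared at ZT 12, 3 against 3, since both states were divided unequally between them. Called at an adjusted p under 0.05 by edgeR were 0 of 12009 genes (0%), with 522 genes at an unadjusted p under 0.05 and a lowest adjusted p of 0.907, and DESeq2 called 4. The biological coefficient of variation, the spread between replicates beyond counting error, was 0.269 in this fit and 0.175, 0.201, and 0.254 in the same fit at ZT 0, ZT 4, and ZT 8. With the state as a term in the model it was 0.187, and 2 genes (0.0167%) were called, with 1002 at an unadjusted p under 0.05, and 35 were called by DESeq2. Etnppl (ENSMUSG00000019232, chromosome 3, 130617448 to 130637521), an ethanolamine-phosphate lyase, was at 197, 155, and 220 CPM in the AIN93G livers Y14_1, Y16_3, and Y1_1 and at 69.8, 90.6, and 82.3 CPM in the HFD livers Y39_1, Y25_1, and Y27_3. Ppl (ENSMUSG00000039457, chromosome 16, 5086291 to 5132421), a cytolinker of cell junctions, was at 25.5, 22.1, and 43.6 CPM against 9.94, 16.5, and 17.8 CPM. Both were lower on the HFD in each of the 3 livers, by 1.35 and 1.31 in the fit with the state (adjusted p = 0.0473 for each) and by 1.24 and 1.04 without it (adjusted p = 0.907 for each). Since the states were read from these libraries, the fit with the state is not independent of their values.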

How the data were processed

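The authors sequenced poly(A) RNA from liver and deposited 1 table of read counts per gene, without normalization. Per the labels, fastp, STAR, HTSeq 0.6.1, DESeq, and STAR-Fusion were used with genome mm10. Their settings and the strand setting are not given in the sources used here. Groups were taken from the labels, replicates were numbered in accession order, and 0 columns were left unmapped. Same-diet pairs of ZT 12 libraries differed by more than the sampling noise. The labels do not number the mice within a diet and time point, so p-values measure the spread between libraries.

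Here, 12009 of 54532 genes were kept, those whose counts averaged 25 or more in the 24 libraries of ZT 0 to ZT 12, a reading of the minimum of 25 in the study's methods. Counts were scaled to CPM with TMM factors, and log2 CPM had a prior count of 2. ZT 0 and ZT 8 were compared by quasi-likelihood in edgeR 4.0.16 (R 4.3.3), with diet as a term and Benjamini-Hochberg adjustment over all genes, and so were the diets at ZT 12 without further terms. Adjusted p-values are from edgeR unless DESeq2 1.42.0 is named. The edgeR fits were tested on simulated data, and DESeq2 was not. Between the states, a gene was counted where every library of 1 group lay above every library of the other and the means of log2 CPM differed by at least 1. Promoter windows are those of RefSeq (GRCm38.p6).

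The members, the 26 gene lists, and the tests were chosen with earlier results of these data known. Named genes are the members of the lists, the 12 genes each way outside the clock list with the widest difference without overlap, the 8 each way among those with an unadjusted p of at least 0.05 or the opposite direction between ZT 0 and ZT 8, and the genes called between the diets; predicted genes were counted, not named, and some listed genes are not reported here. Floors and precision cover counting error only. The alternatives were DESeq2, library-size scaling, other count filters, prior count and fold, fits without the diet term or with the state, each diet alone, and leaving out each library. Calls without the ZT 8 library with muscle genes were added after values had been seen.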

Additional observations from a re-analysis of the deposited data

Results flagged for a closer look

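Of the 413 named or listed genes, 4 differed by at least 2-fold between the states in opposite directions in the diets, with every liver of the diet on that side. Among all 12009 genes tested there were 16. These differences between the diets were not tested. Cyp4a14, a fatty acid hydroxylase, was lower in the ZT 0-like livers on AIN93G (log2 difference -2.22; 163 and 247 CPM against 932 CPM) and higher on the HFD (1.30; 762 CPM against 461 and 208 CPM). Its relative Cyp4a10 differed by -2 on AIN93G and 1.04 on the HFD. Nr0b2 (SHP), a repressor of bile acid synthesis, differed by -1.17 on AIN93G and 1.51 on the HFD. Elovl6, which elongates fatty acids, lay the other way, at 2.5 on AIN93G (415 and 727 CPM against 96.8 CPM) and -1.31 on the HFD (148 CPM against 244 and 551 CPM). Within each diet, 1 state is represented by a single liver.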

How the results depend on the processing

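The genes separating the states past 2-fold numbered 1324 without a count filter and 1480 at 1.5-fold, and 651 to 755 when 1 library was left out. Leaving out a library also loosens the rule of no overlap, so the last counts do not measure dependence on single libraries alone. The share of genes called between ZT 0 and ZT 8 on the same side was 89.4% with the calls of DESeq2, 92.7% with library-size scaling, 83.5% in the HFD livers alone, and 88.5% to 92.6% when 1 library was left out. Between the diets, 2 genes were called with the state as a term, 4 by DESeq2, and 35 by DESeq2 with the state. The genes called between ZT 0 and ZT 8 stayed within 1.5 times of 1410, at 975 to 1376 without 1 library. Of 198 values of the clock genes under alternatives, 184 moved by less than the spread between replicates, and 14 by more. The sign changed in 3 of the 198, all of Rora, which overlapped between the states (0.09, against -0.16 and -0.01 without 1 library and -0.25 in the AIN93G livers alone). Over the alternatives, the adjusted p of Etnppl ranged from 2.15e-12 to 1 and that of Ppl from 2.05e-08 to 1, and edgeR called neither gene without the state. DESeq2 without the state called Etnppl (adjusted p = 3.38e-05) but not Ppl (adjusted p = 0.498). The cause of these changes was not tested. With 3 livers per state, a description by overlap rests on single libraries, and genes under about 1 CPM rest on few reads. Title numbers 21 and 48 occur at both ZT 0 and ZT 8. With these as a replicate block, a fit chosen after seeing the data, 1336 genes were called. Deviations from the group means correlated at -0.101 (number 21) and 0.0868 (number 48) within these pairs. For number 48, 2 libraries were closest to the other library of their number, and for number 21, 0 were. With so few pairs, what libraries of the same number share cannot be told. No paired analysis was possible at ZT 12 because no title number occurs in both groups compared.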
